A study of Mus musculus with 15 samples.

Results

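Mitochondria keep their own folding and protein-clearing machinery, and the messenger RNAs of 10 nuclear genes that encode its core were followed here: the chaperonin genes Hspd1 and Hspe1, the mitochondrial Hsp70 gene Hspa9 with its partners Dnaja3 and Grpel1, the mitochondrial Hsp90 gene Trap1, and the protease genes Lonp1, Clpp, Clpx and Yme1l1. They were picked by name as a set of related genes, with earlier results of these data known, and are 10 of the 55416 Ensembl mouse gene identifiers in the count table. Each symbol matched a single identifier, and all 10 passed the filter on low counts.

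The cells were neural precursor cells cultured from the hippocampus of 6-week-old female mice, which can divide or form neurons and glia. Every line was stable and carried a piggyBac insertion with a puromycin resistance gene, a Tet-On 3G transactivator driven by the SV40 promoter, and a TRE3G promoter that doxycycline switches on. Behind that promoter stood the coding sequence of Atf3 in the Atf3 line (labelled Overexpression-Atf3), that of Atf4 in the Atf4 line (labelled Overexpression-Atf4), and neither in the control line (labelled Overexpression-control). All 3 lines lost EGF and FGF and received 100 ng/ml doxycycline at the same moment, the start of differentiation, and RNA was taken 10 h later. Each line had 5 RNA sequencing libraries, 15 in all. There was 1 line per construct, so an effect of the transgene and a property of the line cannot be told apart. No label states that the 5 libraries of a line were grown as separate cultures; the p-values then reflect only how far these samples differ from each other, and that spread may be technical.

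Libraries held 53.7 to 69.6 M counts. Levels are given as TMM-scaled CPM (counts per 1 M counts of a library), fold changes as log2 values ± standard error from edgeR's quasi-likelihood test over 18244 genes, and a gene was called when its adjusted p was under 0.05. Atf3 averaged 1941 ± 120 CPM in the Atf3 line, 1.40 ± 0.306 CPM in the Atf4 line and 5.02 ± 4.10 CPM in the control line (SD, n = 5 each). Control replicates 4 and 5 stood apart in Atf3, at 11.0 and 7.55 CPM where the other 3 had at most 3.02 CPM, and without them the same numbers of the 10 genes were called against control, 9 and 8. Atf4 averaged 250.3 ± 16.5 CPM in the Atf3 line, 153 ± 21.7 CPM in the Atf4 line and 83.2 ± 6.75 CPM in the control line. Atf4 was thus higher in the line carrying Atf3 than in the line carrying Atf4 itself, and the table does not tell transgene transcripts from native ones. The neural precursor marker Nes averaged 1018 ± 46.6 CPM in the Atf3 line, 834 ± 127 CPM in the Atf4 line and 662 ± 32.1 CPM in the control line, and Fabp7 averaged 1228 ± 69.3 CPM in the Atf3 line, 882 ± 30.5 CPM in the Atf4 line and 543 ± 46.9 CPM in the control line (SD, n = 5 each). Both are among 8 precursor markers that did not move together: 3 were higher (Nes, Fabp7 and Sox9) and 2 lower (Vim and Msi1) for Atf3 against control, and 4 were higher and 2 lower (Vim and Hes1) for Atf4 against control. Vim differed from control by -0.48 on the log2 scale with Atf3 and -0.23 with Atf4, and Hes1 by -1.08 with Atf4. With upper quartile factors, a second way of scaling the libraries, 3 were higher and 3 lower in each comparison. In bulk RNA, fewer cells of a type and less RNA per cell cannot be told apart.

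As background, nearly all mitochondrial proteins are made in the cytosol and threaded unfolded through the membranes. Hspa9 pulls the chain into the matrix, where J-domain proteins such as Dnaja3 stimulate its ATPase and Grpel1 exchanges its nucleotide, and the barrel of Hspd1 closed by the lid of Hspe1 folds the product. Misfolded or surplus proteins are degraded by ATP-driven proteases: Lonp1 and the Clpx-Clpp complex in the matrix, and Yme1l1 in the inner membrane, facing the intermembrane space. When folding in the matrix fails, cells raise the mRNAs of several of these proteins in a program called the mitochondrial unfolded protein response, in which Atf4, Atf5 and Ddit3 are known to act in mammals.

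Hspd1 (chromosome 1, 55077835 to 55088243, minus strand) and Hspe1 (chromosome 1, 55088132 to 55091307, plus strand) lie head to head on GRCm38, with 112 exon bases in common at their 5′ ends. The stretch below is shown because it lies in a promoter window of both genes and holds 3 overlapping matches to the heat shock element, in capitals, on chr1:55088053-55088082, plus strand. RefSeq gives Hspd1 a pair of windows. The stretch lies in the one around a start at 55087932 and not in the one around the start at 55088243. It lies downstream of that second start, within the annotated span of Hspd1. The element is the site known to be bound by heat shock factor.

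Hspd1-Hspe1: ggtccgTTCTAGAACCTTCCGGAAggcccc

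Promoter windows of 300 bases, 250 before and 50 after a gene's start, came from RefSeq on GRCm38.p6 and were present for 9 of the 10 genes, all but Hspa9. The heat shock element was searched as GAANNTTC and as TTCNNGAA, which read the same on both strands and overlap each other in the stretch above. GAANNTTC stood in the windows of 2 of the 9 genes (Hspd1 and Hspe1), against 7.86% of the 32851 mouse windows. TTCNNGAA stood in the windows of 3 (Hspd1, Hspe1 and Clpp), against 8.52%, and the match of Clpp lay 33 bases downstream of its start. Hspd1 and Hspe1 matched both forms through the same stretch above, so their matches are not independent. The shares are of windows, not of genes.

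The next 3 windows are those of Trap1, Clpp and Clpx. Trap1 is shown because it alone of the 9 genes matched the cyclic AMP response element. Clpp and its partner Clpx are shown because their mRNAs behaved differently. Trap1 and Clpp were higher in both overexpressing lines, as were other genes without that element, and Clpx was not called in either. For Clpp (chr17:56990114-56990263, plus strand) and Clpx (chr9:65294110-65294259, plus strand) the stretch is the 150 bases upstream of the gene's start in RefSeq. For Trap1 (chr16:4077828-4077977, minus strand) it is the 150 bases upstream of the start in the GENCODE annotation, and 17 bases lie between its end and the start in RefSeq. Capitals mark a cyclic AMP response element, TGACGTCA, in Trap1, and a CCAAT box, on the opposite strand, in Clpx. In Clpp no searched motif lay in the stretch printed.

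Trap1: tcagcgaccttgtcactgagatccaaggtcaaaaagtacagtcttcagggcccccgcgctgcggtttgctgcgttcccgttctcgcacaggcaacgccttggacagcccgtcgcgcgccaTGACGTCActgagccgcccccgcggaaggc

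Clpp: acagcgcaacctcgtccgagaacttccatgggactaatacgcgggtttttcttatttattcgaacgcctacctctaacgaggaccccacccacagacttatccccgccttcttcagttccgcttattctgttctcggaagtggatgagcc

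Clpx: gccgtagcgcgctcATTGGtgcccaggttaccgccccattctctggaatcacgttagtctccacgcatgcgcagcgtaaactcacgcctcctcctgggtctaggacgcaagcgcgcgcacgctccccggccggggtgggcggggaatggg

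TGACGTCA, the palindromic site known for factors of the ATF and CREB family, was found in the window of 1 of the 9 genes, Trap1, where it began 47 bases before the RefSeq start; 1.79% of all windows held it. TGATGNAA, the core of the composite site of C/EBP and ATF factors, searched on both strands, was in 0 of the 9 windows, against 3.97% of all. TGANTCA, the AP-1 site, was also in 0 of the 9, against 7.81% of all. CCAAT, searched on both strands, was in the windows of 5 genes (Hspd1, Dnaja3, Grpel1, Clpx and Yme1l1), against 37.4% of all. These matches describe letters in a window and were not measured as binding.

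Most of the 10 mRNAs were higher in both overexpressing lines. Set against control, the Atf3 line had 9 of the 10 genes higher and 0 lower; of all tested genes edgeR called 73.2% in this comparison, 36.8% higher and 36.3% lower. In the Atf4 line 8 of the 10 were higher and 0 lower relative to control; of all tested genes 61.6% were called, 31.9% higher and 29.7% lower. The median log2 fold change of the 10 genes was 0.64 for the Atf3 line and 0.41 for the Atf4 line against control, beside -0.02 and -0.00085 for all tested genes. These genes are well expressed, and among the 9951 tested genes with a mean of at least 10 CPM the share called higher was larger, 51.8% for Atf3 against control and 44% for Atf4 against control. For 8 of the 10 genes, all of them higher, no library of the Atf3 line overlapped the control line, and the same number did not overlap between the Atf4 line and control. Over all tested genes 32% did not overlap in that direction in the first comparison and 26.1% in the second. Both comparisons share the control libraries. The counts of all genes depend on scaling: with upper quartile factors in place of TMM, 5395 genes were called higher and 8106 lower in the Atf3 line against control, where TMM gave 6721 and 6630, and the median of all genes moved to -0.14 on the log2 scale. With those factors 8 of the 10 genes were higher and 1, Clpx, was lower in each comparison with control.

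**Figure D1:**
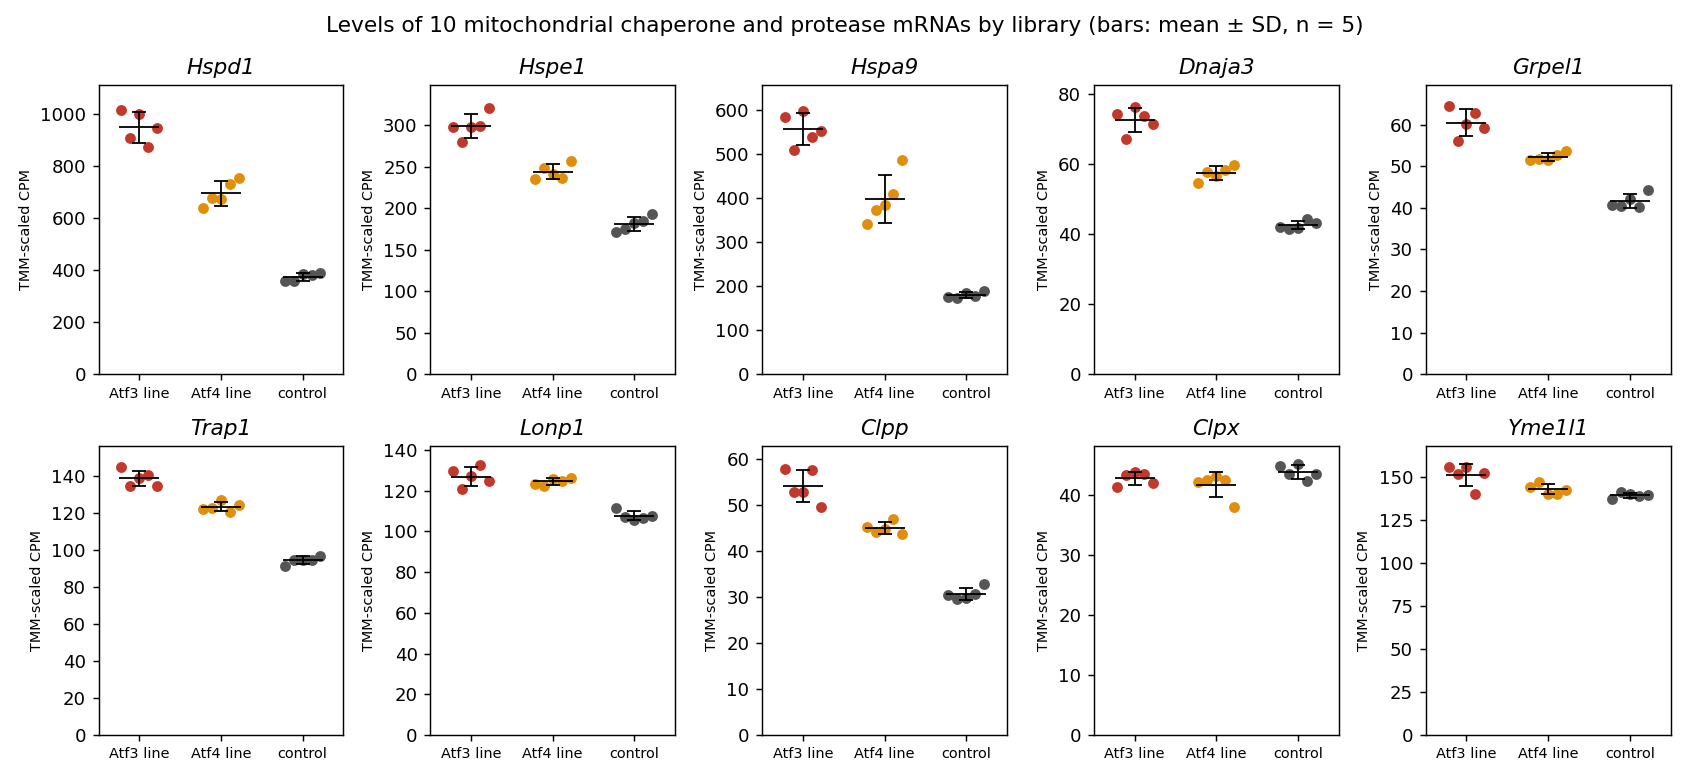
Levels of the 10 mRNAs in each library, in TMM-scaled CPM on axes that start at 0, with the mean ± SD of the 5 libraries of the Atf3 line, the Atf4 line and the control line. In 7 panels the 3 lines stand apart in the same order, Atf3 line, Atf4 line and control line from high to low, while Lonp1 differs little between both overexpressing lines and Clpx and Yme1l1 overlap across lines.

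The chaperonin mRNAs moved strongly, that of the barrel more than that of the lid. Hspd1 stood at 1016, 906, 1001, 874 and 945 CPM in the Atf3 line, at 637, 677, 674, 732 and 754 CPM in the Atf4 line, and at 359, 357, 385, 381 and 387 CPM in the control line. Every library of the Atf3 line lay above every library of the Atf4 line, and these lay above every control library. Hspd1 encodes Hsp60, the barrel in which imported proteins fold, and in the Atf3 line it was 2.54-fold above control (log2 1.34 ± 0.05, adjusted p = 9.4e-14, edgeR) and in the Atf4 line 1.86-fold above (log2 0.89 ± 0.05, adjusted p = 3.4e-11).

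Hspe1, which encodes the Hsp10 lid, stood at 298, 280.3, 298, 299.7 and 322 CPM in the Atf3 line, at 235, 248, 242, 237 and 257 CPM in the Atf4 line, and at 172, 175, 182, 184 and 193 CPM in the control line. Its lines also did not overlap. The change was 1.65-fold in the Atf3 line (log2 0.73 ± 0.04, adjusted p = 1.2e-11, edgeR) and 1.35-fold in the Atf4 line (log2 0.43 ± 0.04, adjusted p = 3.3e-08). Fragments from the 112 bases in common, which are 4.24% of the exon length of Hspd1 and 7.60% of that of Hspe1, could be counted for either gene or for neither, since the strand setting of the counting is not given in the sources used here. Both genes also have near-identical copies in the genome: genes that match Hspd1 held counts equal to 0.758% of its own, nearly all of them in the pseudogene Hspd1-ps3, and those that match Hspe1 held 0.321%.

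The Hsp70 gene had the largest change of the 10. Hspa9 (chromosome 18, minus strand) encodes mortalin, the motor of protein import and the main matrix Hsp70. It stood at 583, 509, 598, 538 and 552 CPM in the Atf3 line, at 340.3, 373, 385, 408 and 485 CPM in the Atf4 line, and at 176, 174, 184, 178 and 189 CPM in the control line. The lines did not overlap, and the Atf4 line was the most scattered, with replicate 5 highest and replicate 1 lowest. Hspa9 exceeded control 3.09-fold in the Atf3 line (log2 1.63 ± 0.07, adjusted p = 5.4e-13, edgeR) and 2.21-fold in the Atf4 line (log2 1.14 ± 0.07, adjusted p = 1.2e-10).

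The helpers of Hspa9 changed less. Dnaja3 (chromosome 16, 4639989 to 4707695, plus strand), the J-domain protein also called Tid1, stood at 74.3, 67.2, 76.1, 73.6 and 71.2 CPM in the Atf3 line, at 54.6, 57.6, 56.5, 58.2 and 59.7 CPM in the Atf4 line, and at 42.1, 41.4, 41.7, 44.3 and 43.2 CPM in the control line. All 3 lines were apart. Its rise was 1.70-fold in the Atf3 line (log2 0.77 ± 0.04, adjusted p = 2.5e-12, edgeR) and 1.35-fold in the Atf4 line (log2 0.43 ± 0.04, adjusted p = 1.5e-08). Dnaja3 shares 3.91% of its exon bases with Coro7 on the opposite strand and 4.09% with Vasn on its own strand.

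Grpel1 (chromosome 5, 36464998 to 36474080, plus strand), the nucleotide exchange factor, stood at 64.4, 56.0, 60.1, 62.9 and 59.3 CPM in the Atf3 line, at 51.6, 51.7, 51.5, 52.8 and 53.7 CPM in the Atf4 line, and at 40.8, 40.5, 42.2, 40.1 and 44.2 CPM in the control line. Again no library of a line crossed into another. Its rise was 1.46-fold in the Atf3 line (log2 0.54 ± 0.04, adjusted p = 5.1e-10, edgeR) and 1.26-fold in the Atf4 line (log2 0.33 ± 0.04, adjusted p = 8.4e-07). The gene shares 11.6% of its exon bases with Tada2b on the opposite strand, so part of its counts is uncertain.

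Trap1 (chromosome 16, 4039971 to 4077827, minus strand), the Hsp90 of the matrix, stood at 145, 135, 139, 141 and 135 CPM in the Atf3 line, at 122, 123, 127, 121 and 124 CPM in the Atf4 line, and at 91.4, 95.0, 94.9, 94.7 and 97.1 CPM in the control line. The lines were apart, with little scatter inside each. Its rise was 1.47-fold in the Atf3 line (log2 0.55 ± 0.03, adjusted p = 8.5e-12, edgeR) and 1.31-fold in the Atf4 line (log2 0.38 ± 0.03, adjusted p = 2.9e-09).

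The 4 protease genes did not move together. Clpp (chromosome 17, 56990305 to 56996188, plus strand) encodes the proteolytic chamber of the Clpx-Clpp complex and stood at 58.0, 52.9, 53.0, 57.6 and 49.7 CPM in the Atf3 line, at 45.3, 44.1, 44.9, 47.1 and 43.7 CPM in the Atf4 line, and at 30.5, 29.5, 29.7, 30.7 and 32.9 CPM in the control line. No libraries of different lines overlapped. Its rise of 1.77-fold in the Atf3 line (log2 0.82 ± 0.05, adjusted p = 1.0e-11, edgeR) and 1.47-fold in the Atf4 line (log2 0.55 ± 0.05, adjusted p = 5.3e-09) came next after those of Hspa9 and Hspd1 among the 10 genes.

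Clpx (chromosome 9, 65294260 to 65330658, plus strand), the ring that unfolds proteins and feeds them to Clpp, stood at 41.3, 43.3, 43.9, 43.5 and 42.1 CPM in the Atf3 line, at 42.3, 42.6, 43.2, 42.5 and 38.1 CPM in the Atf4 line, and at 44.8, 43.5, 45.2, 42.4 and 43.5 CPM in the control line. All 3 lines overlapped, and replicate 5 of the Atf4 line was the lowest library. The log2 difference from control was -0.04 ± 0.04 in the Atf3 line (adjusted p = 0.40, edgeR) and -0.07 ± 0.04 in the Atf4 line (adjusted p = 0.10), and neither was called. With upper quartile factors the same differences were -0.16 (adjusted p = 0.0015) and -0.13 (adjusted p = 0.0078), both called lower. The difference in the Atf4 line was also called lower without Atf4 replicate 3 (log2 -0.10, adjusted p = 0.044, edgeR) or without control replicate 4 (log2 -0.10, adjusted p = 0.038).

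Lonp1 (chromosome 17, 56614297 to 56626887, minus strand), the matrix protease that removes oxidised and unassembled proteins, stood at 129.6, 121, 127, 133 and 125 CPM in the Atf3 line, at 124, 123, 126, 125 and 126 CPM in the Atf4 line, and at 111, 107, 105, 106 and 108 CPM in the control line. Both overexpressing lines lay above all control libraries and overlapped each other. Its rise was small, 1.18-fold in the Atf3 line (log2 0.24 ± 0.03, adjusted p = 9.8e-07, edgeR) and 1.16-fold in the Atf4 line (log2 0.21 ± 0.03, adjusted p = 7.0e-06).

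Yme1l1 (chromosome 2, 23156369 to 23199260, plus strand), the inner membrane protease that faces the intermembrane space, stood at 155, 151, 156, 139.9 and 152 CPM in the Atf3 line, at 144, 147, 140.1, 140.1 and 142 CPM in the Atf4 line, and at 137, 141, 139.9, 139 and 139 CPM in the control line. Of the Atf3 line, 4 libraries lay above all others, and replicate 4 fell among the control libraries. The log2 difference from control was 0.12 ± 0.03 in the Atf3 line (1.08-fold, adjusted p = 0.0027, edgeR), which was called higher, and 0.04 ± 0.03 in the Atf4 line (adjusted p = 0.34), which was not. The call in the Atf3 line was lost with upper quartile factors (log2 -0.0029, adjusted p = 0.94) and with a filter at 1 CPM in 5 libraries (log2 0.06, adjusted p = 0.095).

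**Figure D2:**
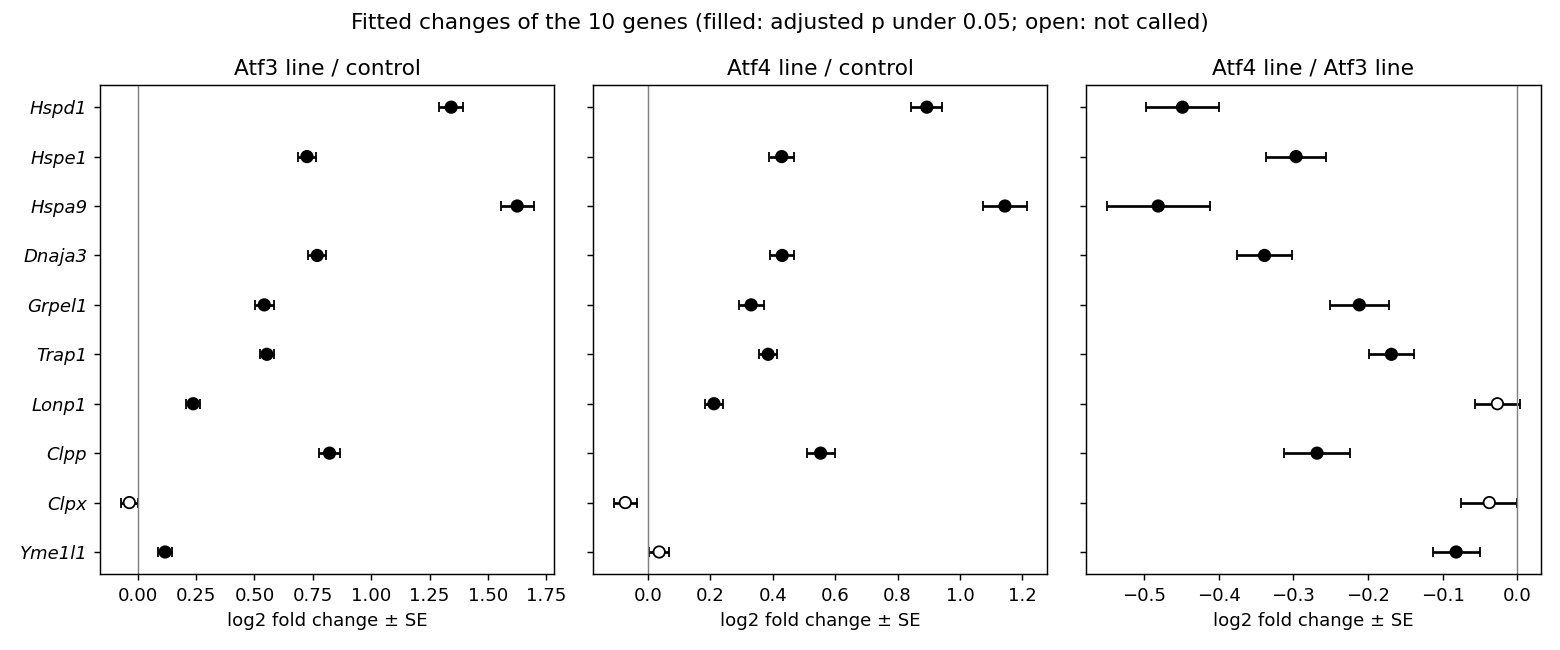
Log2 fold changes ± SE of the 10 genes in 3 panels with axes of different ranges: Atf3 line over control, Atf4 line over control, and Atf4 line over Atf3 line. Filled points were called at an adjusted p under 0.05 and open points were not; Hspa9 and Hspd1 lie farthest from 0 in each panel, and Clpx is open in all 3.

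Set directly against the Atf3 line, the Atf4 line was lower for 8 of the 10 genes and higher for none, where 43.6% of all tested genes were called, 19.7% higher and 23.9% lower. The median log2 fold change of the 10 was -0.24, beside 0.0070 for all tested genes. For 7 of the 10 no library overlapped, all lower, where 16.3% of tested genes did so. Among genes with a mean of at least 10 CPM, 36.4% were called lower. With upper quartile factors the split of all genes in this comparison turned round, to 5089 higher and 3017 lower, where TMM gave 3595 higher and 4363 lower, and 7 of the 10 genes were called lower.

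The largest differences between both overexpressing lines were again those of the main chaperones. Hspa9 averaged 398 ± 54.3 CPM in the Atf4 line and 556 ± 35.6 CPM in the Atf3 line (SD, n = 5 each), a log2 difference of -0.48 ± 0.07 (adjusted p = 2.5e-05, edgeR). Hspd1 averaged 695 ± 47.5 CPM in the Atf4 line and 948 ± 60.6 CPM in the Atf3 line, a log2 difference of -0.45 ± 0.05 (adjusted p = 1.7e-06). Dnaja3 followed with -0.34 ± 0.04 (adjusted p = 1.9e-06), Hspe1 with -0.30 ± 0.04 (adjusted p = 1.3e-05), Clpp with -0.27 ± 0.04 (adjusted p = 1.0e-04), Grpel1 with -0.21 ± 0.04 (adjusted p = 3.1e-04) and Trap1 with -0.17 ± 0.03 (adjusted p = 1.9e-04). These are the 7 genes whose lines did not overlap.

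The proteases other than Clpp gave small differences. Lonp1 averaged 125 ± 1.63 CPM in the Atf4 line and 127 ± 4.61 CPM in the Atf3 line, a log2 difference of -0.03 ± 0.03 (adjusted p = 0.50, edgeR). Clpx averaged 41.7 ± 2.07 CPM in the Atf4 line and 42.8 ± 1.07 CPM in the Atf3 line, a log2 difference of -0.04 ± 0.04 (adjusted p = 0.45). Neither was called, and with upper quartile factors both differences were above 0, at 0.04 for Lonp1 and 0.03 for Clpx. Yme1l1 averaged 143 ± 2.96 CPM in the Atf4 line and 151 ± 6.47 CPM in the Atf3 line, a log2 difference of -0.08 ± 0.03 whose adjusted p of 0.044 (edgeR) lay close to the threshold. That call was lost when any of Atf4 replicates 1, 3, 4 and 5 or Atf3 replicates 1, 2, 3 and 5 was left out (adjusted p = 0.060 to 0.11), and under RLE or upper quartile factors.

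Because partners changed by different amounts, the balance of their mRNAs was measured as a ratio of counts of both genes in each library. Such a ratio does not depend on how libraries are scaled. Protein was not measured, so the balance inside the complexes is not known. There were 4 ratios in 3 comparisons, 12 two-sided exact permutation tests of log2 ratios in all, adjusted by Benjamini and Hochberg. With 5 libraries against 5 the smallest p possible is 0.00794, reached in 9 of the 12, and its adjusted value is 0.0106. The ratios are of counts, not of molecules, since the genes differ in length.

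For every 1 Hspd1 count there were 0.317 ± 0.0235 Hspe1 counts in the Atf3 line, 0.352 ± 0.0191 in the Atf4 line and 0.485 ± 0.00908 in the control line (SD, n = 5 each). The mRNA of the lid was thus lower relative to that of the barrel in both overexpressing lines, with no overlap with control. The log2 ratio differed by -0.62 for Atf3 and -0.46 for Atf4 (exact permutation p = 0.00794, adjusted p = 0.0106 each). Between the Atf4 and Atf3 lines the log2 difference was 0.15, the ranges overlapped and the adjusted p was 0.0519 (exact permutation), which became 0.035 or 0.043 when Atf3 replicate 4 or 5 or Atf4 replicate 4 was left out (log2 0.18 in each).

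For every 1 Clpp count there were 0.792 ± 0.0567 Clpx counts in the Atf3 line, 0.927 ± 0.0402 in the Atf4 line and 1.43 ± 0.0799 in the control line (SD, n = 5 each). Clpx had fewer counts than Clpp in every library of the Atf3 line, at 0.712 to 0.848, and the Atf4 line, at 0.871 to 0.966. It had more in every control library, at 1.32 to 1.52. As CPM per kilobase of annotated exon, Clpx lay below Clpp in the control line too, at 12.1 to 12.9 against 24.1 to 26.9. The log2 ratio differed from control by -0.86 in the Atf3 line and by -0.63 in the Atf4 line, and the Atf4 line lay 0.23 above the Atf3 line without overlap (exact permutation p = 0.00794, adjusted p = 0.0106 in all 3).

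Grpel1 counts per Hspa9 count averaged 0.109 ± 0.00593 in the Atf3 line, 0.133 ± 0.0149 in the Atf4 line and 0.231 ± 0.00370 in the control line (SD, n = 5 each). The log2 ratio was -1.08 from control for the Atf3 line and -0.80 for the Atf4 line (exact permutation p = 0.00794, adjusted p = 0.0106 each). The mRNA of the exchange factor was thus lower relative to that of its Hsp70 in both overexpressing lines, with no overlap with control. The Atf4 line lay 0.28 above the Atf3 line (exact permutation p = 0.0159, adjusted p = 0.0190) with overlapping ranges. Dnaja3 counts per Hspa9 count averaged 0.131 ± 0.00408 in the Atf3 line, 0.145 ± 0.0142 in the Atf4 line and 0.236 ± 0.00885 in the control line. Against control the log2 ratio differed by -0.86 for the Atf3 line and -0.70 for the Atf4 line (exact permutation p = 0.00794, adjusted p = 0.0106 each). The difference of 0.15 between the Atf4 and Atf3 lines had an adjusted p of 0.0635 (exact permutation), and their ranges overlapped; without Atf4 replicate 5, the library with the most Hspa9 of its line, the difference was 0.21 (adjusted p = 0.0087).

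**Figure D3:**
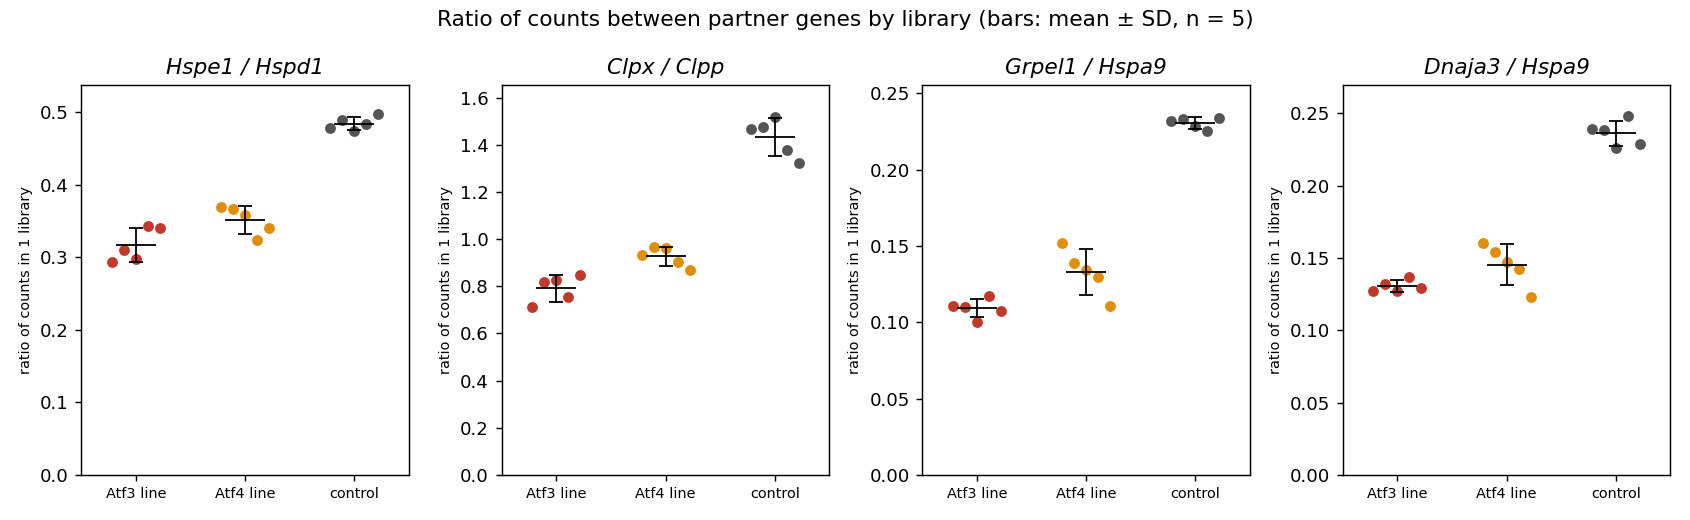
Counts of the second partner per count of the main one in each library (lid per barrel, unfoldase per protease, and both helpers per Hsp70), on axes from 0, with mean ± SD of 5 libraries per line. In all 4 panels every library of the Atf3 and Atf4 lines lies below every control library.

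Outside those ratios, levels of different genes were compared only per length, as CPM per kilobase of annotated exon. This treats all annotated exons as used, and the order of genes depends on that choice. On that scale Hspd1 was the highest of the 10 in every line, at 359 ± 22.9 in the Atf3 line, 263 ± 18.0 in the Atf4 line and 141.5 ± 5.55 in the control line (SD, n = 5 each). Hspe1 followed at 203 ± 9.95 in the Atf3 line, 165 ± 6.13 in the Atf4 line and 123 ± 5.58 in the control line, and did not overlap Hspd1 in any. Hspa9 came next, at 129 ± 8.26 in the Atf3 line, 92.4 ± 12.6 in the Atf4 line and 41.8 ± 1.48 in the control line, and lay close above Trap1 only in the control line, where Trap1 averaged 36.8 ± 0.797. The longest protein-coding transcripts have 2423 bases for Hspd1 and 774 for Hspe1, where annotated exons cover 2642 and 1474. Per transcript length Hspe1 would lie above Hspd1 in the Atf4 and control lines. For Hspa9 and Trap1 these transcripts have 3049 and 2320 bases against 4310 and 2573 of exon. Hspa9 would then stand farther above Trap1 in the control line.

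The order below Trap1 differed between lines. Clpp lay above Lonp1 without overlap in the Atf3 line, at 40.6 to 47.4 against 27.6 to 30.4 CPM per kilobase, and in the Atf4 line, at 35.7 to 38.5 against 28.0 to 28.9. In the control line Clpp, at 24.1 to 26.9, overlapped Lonp1, at 24.1 to 25.4. Their annotated exons cover 1223 and 4374 bases and their longest protein-coding transcripts 983 and 2951. Per transcript length Lonp1 would lie above Clpp in the control line. Clpx was lowest of the 10 in the Atf3 line, at 11.8 to 12.6, below Grpel1 at 15.9 to 18.3 and Dnaja3 at 17.2 to 19.5, which overlapped each other and Yme1l1 at 17.5 to 19.5. In the control line Clpx at 12.1 to 12.9 overlapped Grpel1 at 11.4 to 12.5, and Dnaja3 was lowest at 10.6 to 11.3. That place of Dnaja3 rests on its 3912 annotated exon bases, where its longest protein-coding transcript has 2648. Per transcript length Grpel1 would be lowest in the control line.

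**Figure D4:**
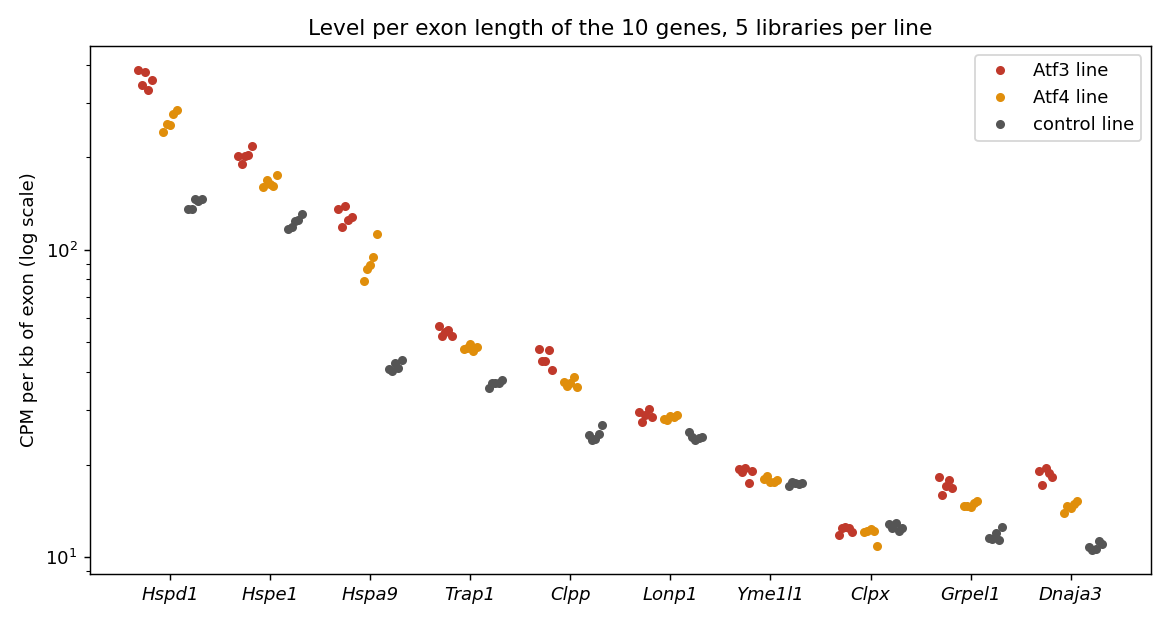
CPM per kilobase of exon on a log axis for each of the 10 genes, ordered by their mean in the control line, with 1 point per library in the Atf3 line, the Atf4 line and the control line. On this scale, which counts all annotated exons, Hspd1 is highest in all 3 lines. Clpx, level across lines, is lowest in the Atf3 line but not in the control line. The order of genes depends on the length used.

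Other genes of the same machinery were taken from lists. Of 16 further mitochondrial proteases and prohibitin-type regulators, 11 rose and 0 fell in the Atf3 line relative to control (median log2 0.38), and 10 rose and 0 fell in the Atf4 line (median 0.24). Of all tested genes 36.8% were called higher in the first comparison and 31.9% in the second, and 36.3% and 29.7% lower. Of those with a mean of at least 10 CPM, 51.8% and 44% were called higher, and 31.5% and 29.6% lower. The list counts that follow are to be read against these shares. With upper quartile factors 10 of the 16 rose and 2 fell in the Atf3 line. Phb2, a prohibitin of the inner membrane ring that binds membrane proteases, changed by 1.03 ± 0.04 on the log2 scale in the Atf3 line (adjusted p = 3.3e-13, edgeR) and by 0.69 ± 0.04 in the Atf4 line (adjusted p = 1.4e-10). Htra2, a protease of the intermembrane space, changed by 0.96 ± 0.05 in the Atf3 line and by 0.64 ± 0.05 in the Atf4 line. Of 11 other chaperones and assembly factors, 8 rose and 1 fell in the Atf3 line (median 0.31), and 8 rose and 1 fell in the Atf4 line (median 0.25). Bcs1l, which assembles respiratory complex III, changed by 0.77 ± 0.05 in the Atf3 line and by 0.45 ± 0.05 in the Atf4 line, while Hscb, a J-domain protein of iron-sulfur cluster assembly that works with Hspa9, fell by 0.42 in the Atf3 line (adjusted p = 1.1e-05, edgeR) and by 0.22 in the Atf4 line (adjusted p = 0.0054).

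Protein import genes were called higher for 23 of 25 tested in the Atf3 line and 20 of 25 in the Atf4 line. With 0 lower in either, the medians were 0.70 and 0.41. With upper quartile factors 22 rose and 2 fell in the Atf3 line, and 20 rose and 1 fell in the Atf4 line. Tomm40, the pore of the outer membrane, averaged 99.6 ± 6.08 CPM in the Atf3 line, 72.7 ± 5.41 CPM in the Atf4 line and 39.5 ± 1.80 CPM in the control line (SD, n = 5 each). Timm8a1, a small chaperone of the intermembrane space, averaged 43.7 ± 4.08 CPM in the Atf3 line, 30.3 ± 5.75 CPM in the Atf4 line and 9.65 ± 0.607 CPM in the control line. Of 15 genes of mitochondrial biogenesis and DNA maintenance, 14 rose and 0 fell in the Atf3 line (median 0.46), and 12 rose and 1 fell in the Atf4 line (median 0.33).

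Relatives outside mitochondria were also higher. Of 17 genes, chaperones and a protease of the cytosol, endoplasmic reticulum and peroxisome that are related to the 10 genes, such as the chaperonin subunits Cct3 and Cct6a and the Hsp70 gene Hspa8, 17 were higher in the Atf3 line (median 0.63) and 15 in the Atf4 line (median 0.42), with 0 lower in either. Cct6a changed by 1.12 ± 0.04 for the Atf3 line and 0.73 ± 0.04 for the Atf4 line, and Hspa8 by 0.85 ± 0.03 with Atf3 and 0.67 ± 0.03 with Atf4. The 13 protein genes of mitochondrial DNA did not follow: 3 rose and 2 fell in the Atf3 line (median 0.00012), and 0 rose and 9 fell in the Atf4 line (median -0.23). With upper quartile factors 2 rose and 8 fell in the Atf3 line (median -0.12). All genes whose symbol starts with mt-, these 13 among them, held 3.23 to 3.95% of counts in the Atf3 line. They held 3.28 to 3.57% in the Atf4 line and 4.00 to 4.16% in the control line.

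Regulators of the mitochondrial unfolded protein response were mostly higher, 6 of 7 in the Atf3 line with 1 lower (median 0.69), and 5 of 7 in the Atf4 line with 1 lower (median 0.30). The 7 include Atf4, whose coding sequence the Atf4 line carries, and its counts do not tell transgene transcripts from native ones. The part of the construct in its rise there was not tested. Of the other 6, 5 were higher and 1 lower with Atf3 (median 0.61), and 4 higher and 1 lower with Atf4 (median 0.24). Atf5, whose Caenorhabditis elegans counterpart acts in this response, averaged 264.7 ± 11.2 CPM in the Atf3 line, 229 ± 18.0 CPM in the Atf4 line and 123 ± 2.81 CPM in the control line (SD, n = 5 each). Cebpb changed by 1.30 ± 0.10 on the log2 scale for the Atf3 line and 0.91 ± 0.10 for the Atf4 line. Eif2ak1, the kinase HRI, which in human cells relays mitochondrial stress to ATF4, was the gene called lower, at -0.11 ± 0.04 on the log2 scale in the Atf3 line (adjusted p = 0.023, edgeR) and -0.13 ± 0.04 in the Atf4 line (adjusted p = 0.011).

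**Figure D5:**
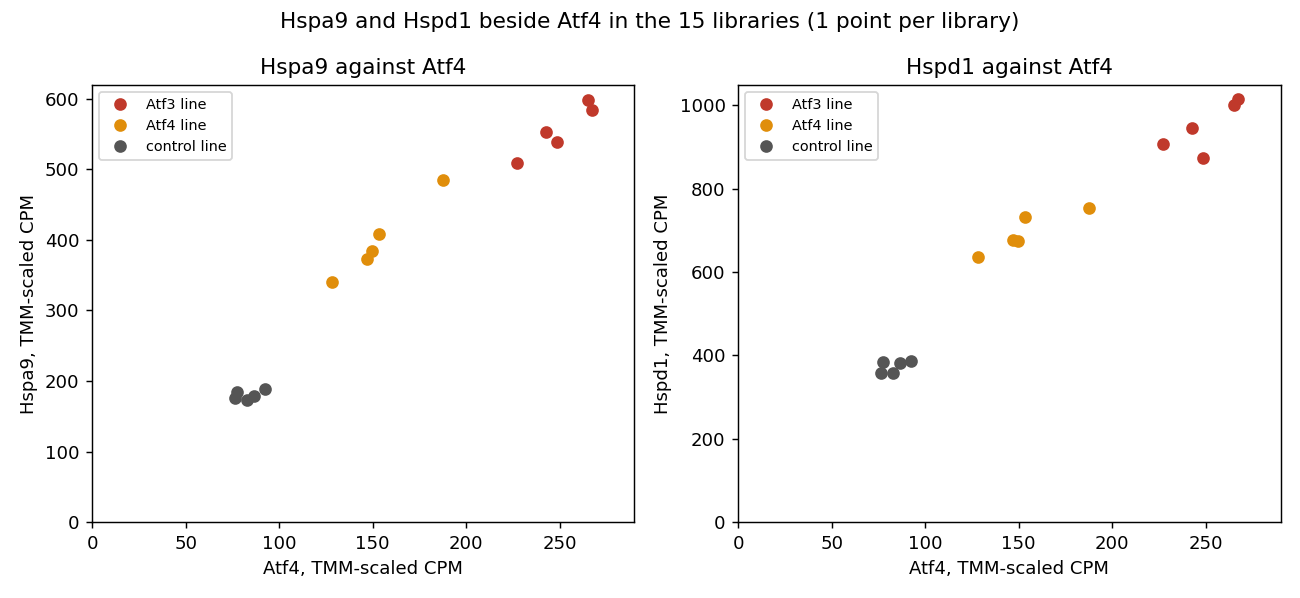
Hspa9 (left) and Hspd1 (right) against Atf4 in the same library, all in TMM-scaled CPM on axes from 0, with 1 point for each of the 15 libraries. The lines form 3 separate clusters in the order Atf3 line, Atf4 line and control line from high to low on both axes; within the Atf4 line, Hspa9 is higher in each library with more Atf4.

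Markers of other cell types moved between lines beside these genes. Of 7 tested markers of the oligodendrocyte lineage, 7 fell for the Atf3 line and 6 for the Atf4 line relative to control. Of all tested genes 36.3% and 29.7% were called lower in these comparisons. The 8 listed markers summed to 2921 to 3733 CPM in the Atf3 line and 3474 to 4047 CPM in the Atf4 line. In the control line they summed to 3845 to 4417 CPM. Neuronal markers summed to 1338 to 1565 CPM in the Atf3 line, where 1 of 7, Stmn2, was at 0, to 1361 to 1516 CPM in the Atf4 line and to 1643 to 1825 CPM in the control line. Of the 6 tested, 1 was higher and 3 lower for Atf3 against control, and 2 were higher and 3 lower for Atf4 against control. Tubb3, a neuronal tubulin, differed from control by -2.44 on the log2 scale with Atf3 and -0.99 with Atf4, while Syt1, a calcium sensor of synaptic vesicles, differed by 1.65 with Atf3 and 1.08 with Atf4. Astrocyte markers summed to 828 to 1011 CPM in the Atf3 line, 863 to 1017 CPM in the Atf4 line and 667 to 744 CPM in the control line, while the list's genes went both ways. Of its 6 genes 2, the glutamate transporter genes Slc1a3 and Slc1a2, were higher in both comparisons with control, while 3 were lower with Atf3 (median -0.63) and 4 with Atf4 (median -0.74). Gfap, the astrocyte filament protein, differed from control by -1.25 on the log2 scale with Atf3 and -0.98 with Atf4. Microglia markers summed to at most 1.36 CPM in any library and ependymal markers to at most 43.1 CPM, with Tmem212 at 0 in the Atf4 line. Endothelial and mural markers summed to 8.49 to 12.3 CPM in the Atf3 line, with Cldn5 and Pdgfrb at 0, to 15.2 to 19.1 CPM in the Atf4 line and to 42.8 to 47.6 CPM in the control line. The part of these shifts in the levels of the 10 genes was not tested.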

How the data were processed

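RNA was sequenced from 3 lines with 5 libraries each, and the report uses all 15. The values deposited by the authors are raw whole-number gene counts without normalization. Per the submitters' processing notes, STAR and edgeR were used with mm10; not given in the sources used here are their versions, the counter, whether it used strand, and the gene annotation. Groups and replicate numbers came from the titles. Symbols and coordinates came from GENCODE M21 on GRCm38, the assembly also called mm10; 52135 of 55416 identifiers matched a symbol.

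Counts were scaled by TMM and filtered with filterByExpr in edgeR 4.0.16 (R 4.3.3), leaving 18244 of 35525 genes with any count. A single fit held all 15 libraries; the comparisons used the quasi-likelihood test of edgeR, with Benjamini-Hochberg adjustment over all tested genes and a threshold of 0.05. Standard errors were derived from the log2 fold change and the F statistic of the test. Ratios of counts were compared by exact permutation. Copies were found with BLAST 2.17.0 at 90% identity over 300 bases. The code was tested on simulated data.

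Between replicates of a line counts differed beyond sampling noise (chi-square per degree of freedom 5.47 to 53.4), so none was treated as a library deposited more than once; this does not show separate cultures. Same-numbered libraries of different lines did not deviate together, so the numbers were not used to pair them. The named genes are the 10, Atf3, Atf4, and from 14 lists (151 of 152 entries matched to a single row) up to 3 genes per direction with the smallest adjusted p; a part of these is printed, and 1 precursor marker is not reported here. The 10 genes and the lists were chosen with earlier results of these data known. Alternatives were DESeq2 1.42.0, limma-voom (limma 3.58.1), other scalings and filters, fits of 2 lines alone, a replicate block and leaving out each library; leaving out control replicates 4 and 5 together was added after seeing the data.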

Additional observations from a re-analysis of the deposited data

Results flagged for a closer look

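In groups of 5 libraries, a library was singled out when its gap to the nearest other exceeded 0.71 of the group's range; chance singles out about 1 group in 20. Of 42 groups checked, 2 were singled out. Clpx in the Atf4 line stood at 38.1 CPM in replicate 5, where the other 4 libraries lay at 42.3 to 43.2 CPM. Yme1l1 in the Atf3 line stood at 139.9 CPM in replicate 4, where the others lay at 151 to 156 CPM. No other gene was singled out in either library.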

How the results depend on the processing

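Of the 30 results for the 10 genes (10 genes in 3 comparisons), 23 kept their direction and their side of the threshold under all alternatives run, 560 fits of a gene in all; the exceptions concern Clpx, Yme1l1 and Lonp1. With DESeq2 or limma-voom the counts called were the 9, 8 and 8 of edgeR (Atf3 against control, Atf4 against control, Atf4 against Atf3). The number called lower was 1 in place of 0, through Clpx, with upper quartile factors and with a filter at 1 CPM in 5 libraries in both comparisons with control (log2 -0.10, adjusted p = 0.021 and -0.11, adjusted p = 0.013 under the filter); leaving out single libraries gave 0 to 1 for Atf4 against control, with 1 without Atf4 replicate 3 (adjusted p = 0.044) and without control replicate 4 (adjusted p = 0.038). Directions turned with upper quartile factors for Yme1l1 in the Atf3 line (-0.0029) and the Atf4 line (-0.021) against control and for Clpx (0.027) and Lonp1 (0.038) between the Atf4 and Atf3 lines, and for Lonp1 also under the 1 CPM filter (0.00025). The call of Yme1l1 between the Atf4 and Atf3 lines was lost with RLE factors (adjusted p = 0.051), with upper quartile factors (0.68), without a filter (0.11), under the 1 CPM filter (0.14), with these 2 lines alone (0.17) and in 8 fits that left out a library; its log2 value over all fits that left out a library ran from -0.11 to -0.07. The cause was not tested. Leaving out a library moved the log2 ratio of Dnaja3 to Hspa9 between the Atf4 and Atf3 lines over 0.11 to 0.21, with an adjusted p of 0.0087 without Atf4 replicate 5, and that of Hspe1 to Hspd1 over 0.13 to 0.18, with an adjusted p of 0.035 to 0.087 (exact permutation); the other 10 ratio tests kept their call.

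With the replicate number as a block, 9, 8 and 7 of the 10 genes were called, and Yme1l1 between the Atf4 and Atf3 lines had an adjusted p of 0.064. The deviations of 15 same-numbered pairs correlated at -0.079 to 0.098 and those of 60 other pairs at -0.20 to 0.26, and not every library correlated best with its own number. Without control replicates 4 and 5, 9 and 8 genes were called against control. With at least 53.7 M counts per library, the lowest count of any of the 10 genes in a library was 1649, for Clpp.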

Other observations

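Within the Atf4 line, the libraries ordered by Atf4 were also ordered by Hspa9. Atf4 was 128, 147, 149.6, 154 and 188 CPM in replicates 1 to 5, and Hspa9 was 340.3, 373, 385, 408 and 485 CPM in the same libraries. Hspd1 followed nearly the same order, at 637, 677, 674, 732 and 754 CPM. Library totals in that order were 64.3, 69.6, 56.6, 56.3 and 55.0 M counts. In the control line Atf4 was 76.3, 82.9, 77.4, 86.7 and 92.6 CPM beside 176, 174, 184, 178 and 189 CPM of Hspa9, which did not follow the same order. With 5 libraries a line, these orders are values only.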
